A study of Mus musculus with 12 samples.

Results

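The genes described here were the organic ion carriers of the Slco and Slc22a families and the ATP-binding cassette (ABC) genes of families a to g, chosen by gene symbol, without Abcb11, the bile salt export pump. Of 21936 genes in the table, 88 carried such a symbol, and 59 of these had at least 10 reads in at least 3 libraries (6 Slco, 15 Slc22a and 38 Abc genes). The other 29 were below that minimum, and 13 of them had 0 reads in every library. The rule selects by name only, so it also took in Abce1, Abcf1, Abcf2 and Abcf3, ATPases that work on ribosomes and move nothing across a membrane.

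Livers of male C57BL/6 mice (C57BL/6J in the study's methods), 6 weeks old on purchase, were profiled by RNA sequencing, with 3 libraries in each of 3 groups. Every mouse had received carbon tetrachloride (CCl4, an agent that injures hepatocytes and leads to fibrosis) by intraperitoneal injection at 1 mL/kg, 2 times a week for 8 weeks. LFG livers were taken at the end of that course. REG livers came from mice that then received 200 µL of PBS by tail vein 2 times a week for 4 weeks, and hADMSCs-Exo livers from mice that received 250 µg of exosomes from human adipose-derived mesenchymal stem cells in 200 µL on the same schedule. None of the groups analysed here was without CCl4, and LFG mice were killed before the other groups, so time since injury and age differ between LFG and both later groups. A further group of 3 samples given the stem cells themselves was not analysed here. The columns read as hADMSCs-Exo are headed MSC_E and a number, while the sample titles say Exo for the exosome group and MSC for the stem cell group, so every hADMSCs-Exo value depends on this match of names.

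Hepatocytes face blood on the sinusoidal side and bile on the canalicular side. On the sinusoidal side, organic anion transporting polypeptides (Slco genes) and organic anion and cation transporters (Slc22a genes) take up bilirubin, hormones, drugs and cationic metabolites. On the canalicular side, ABC pumps spend ATP to drive phospholipid, sterols and conjugates into bile, while ABCC3 and ABCC4 return conjugates to blood when bile flow fails. In bulk tissue, fewer cells of a type and less RNA per cell cannot be told apart.

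Libraries held 13837445 to 19840917 counted reads. LFG 3 stood apart: its log2 expression correlated with LFG 1 and LFG 2 at r = 0.834 and 0.874, against 0.965 between LFG 1 and LFG 2 and 0.959 to 0.981 within the other groups. Member counts and most fold changes against LFG are therefore given with and without LFG 3. All 11 hepatocyte marker genes in the table were detected, and their summed level was 91873 to 158733 CPM (read counts scaled to library size, with TMM factors) in LFG, 175079 to 184966 in REG and 132360 to 147526 in hADMSCs-Exo. The summed level of 11 markers of hepatic stellate cells and myofibroblasts was 1518, 1030 and 74.6 CPM in LFG 1 to 3, 236.5 to 407 in REG and 91.6 to 256 in hADMSCs-Exo. The library labelled LFG 3 was thus below every other library, REG and hADMSCs-Exo included, for markers that were highest in LFG 1 and LFG 2. Its label is in doubt for this reason and could not be checked here. Whether the label or the liver sample itself differed cannot be told apart, so each value that uses all 3 LFG libraries depends on LFG 3. No list of markers (hepatocyte, stellate, cholangiocyte, macrophage, sinusoidal endothelial, lymphocyte, red blood cell) held a gene at 0 in every library. All 4 Y-linked genes examined (Ddx3y, Uty, Kdm5d and Eif2s3y) were detected in all 9 libraries, in keeping with the labelled sex.

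Promoter sequences were matched for 45 of the 59 genes by symbol (RefSeq, GRCm38.p6). The first stretch is shown because Abcg5 and Abcg8, which encode both subunits of the sterol pump of the canalicular membrane, are read in opposite directions on chromosome 17 with 109 bases between their starts, so that 1 short region lies upstream of both. It spans chr17:84683012-84683120 on the plus strand, between the RefSeq starts used here, and capitals mark both matches to AGATAA (the core letters bound by GATA factors, searched on both strands).
Abcg5 and Abcg8: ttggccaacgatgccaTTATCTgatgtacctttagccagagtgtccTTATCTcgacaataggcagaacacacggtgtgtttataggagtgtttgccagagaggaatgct
That motif was present in 11.2% of 32851 promoter windows of the same table (250 bases before to 50 after a start) and in those of 5 members, Abcf2, Abcg5, Abcg8, Slc22a17 and Slc22a18.

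The second pair is shown because Slco1a1 and Slc22a26 were the carriers whose levels spread most between libraries, described further on. The windows run from 250 bases before the start to 50 after it, both on the minus strand, at chr6:141946913-141947212 for Slco1a1 and chr19:7802618-7802917 for Slc22a26. Capitals mark TTCNNNGAA, the letters that STAT5, the factor through which growth hormone acts in liver, binds.
Slco1a1: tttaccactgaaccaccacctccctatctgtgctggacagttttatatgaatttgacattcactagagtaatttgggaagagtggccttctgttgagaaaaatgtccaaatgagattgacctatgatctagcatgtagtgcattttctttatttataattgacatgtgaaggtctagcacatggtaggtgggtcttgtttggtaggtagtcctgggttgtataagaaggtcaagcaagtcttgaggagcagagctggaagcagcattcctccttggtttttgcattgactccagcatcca
Slc22a26: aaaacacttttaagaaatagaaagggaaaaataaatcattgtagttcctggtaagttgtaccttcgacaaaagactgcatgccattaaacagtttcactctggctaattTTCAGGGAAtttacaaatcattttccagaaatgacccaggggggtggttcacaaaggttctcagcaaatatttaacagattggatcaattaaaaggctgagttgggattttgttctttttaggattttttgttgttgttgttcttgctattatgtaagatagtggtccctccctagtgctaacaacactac
The Slc22a26 window held 1 match and the Slco1a1 window 0. The motif was present in 8.3% of all windows and in those of 6 members, Abcc4, Abcc5, Slc22a15, Slc22a26, Slco1b2 and Slco2b1. A match of letters is a description and not evidence of binding.

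Levels were compared between genes per gene length. On the FPKM scale (deposited values normalised for gene length and library size), the mean over 9 libraries was 160 for Slco1b2, the carrier that takes up bilirubin and statins. Slc22a18 (58.1 FPKM), the conjugate pump Abcc2 (57.6 FPKM), its sinusoidal counterpart Abcc3 (55.5 FPKM) and the peroxisomal fatty acid transporter Abcd3 (50.7 FPKM) were abundant too, and close to one another. In all, 21 members had a mean of at least 10 FPKM, and 12 were under 1 FPKM, among them Abcb1b (0.183), Slc22a3 (0.400), Abcc1 (0.241) and Abcc12 (0.082). The level of one gene differed between libraries by very different amounts: the range of log2 CPM over the 9 libraries had a median of 1.55, was under 1 for 15 members and over 3 for 8, and went from 0.20 for Abcf1 to 8.23 for Slco1a1.

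The comparison of hADMSCs-Exo with REG asks what the exosomes added to 4 weeks of recovery. After adjustment over all genes, no transporter gene was called (adjusted p under 0.05 and a log2 fold change of at least 1 in edgeR's quasi-likelihood test, 0 of 57 tested). Among all genes tested, 1 was called, 0.00811% of 12337. At an unadjusted p under 0.05 there were 11 of 57 members, against 10.0% of all genes tested, and all 11 were higher in hADMSCs-Exo, where 5.34% of all genes tested were higher at that threshold. These 11 genes were Slc22a5, Abcd4, Abcg2, Abca1, Abcc10, Abcc12, Slc22a3, Abcc5, Abcc3, Abcg5 and Abcb4. Of these, Abcc12 passed the read minimum with no REG library at 10 reads. DESeq2 also called 0 members, beside 0.525% of 12944 genes, and had 12 at an unadjusted p under 0.05, against 7.74% of all genes. The 11 dropped to 6 without REG 2 (Abca1, Abcc12, Abcd4, Abcg2, Slc22a3 and Slc22a5), and to 4 when all 9 libraries shared one fit (Abca1, Abcc12, Abcd4 and Slc22a5).

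Over all 57 members, 37 were higher and 20 lower, beside 51.1% of all genes tested that were higher, with a median log2 fold change of 0.06 beside 0.01 for all genes tested. Groups that did not overlap were found for 9 members, all higher in hADMSCs-Exo, against 15.5% of all genes in either direction and 8.07% higher. Markers of other cells differed in the same comparison, in which 10.0% of all genes tested had an unadjusted p under 0.05 in edgeR. All 11 stellate cell and myofibroblast markers had lower values in hADMSCs-Exo, 7 of them at an unadjusted p under 0.05. So did 7 of 11 hepatocyte, 9 of 9 sinusoidal endothelial and 6 of 6 red blood cell markers, with 0 at that threshold in each list, and 3 of 5 cholangiocyte markers, with 1. Values were higher for 6 of 7 lymphocyte markers, 1 of them at that threshold, and for 7 of 11 macrophage markers, with 0. Their part in the transporter values was not tested.

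Slc22a5 encodes OCTN2, the sodium-dependent carnitine carrier that fatty acid oxidation depends on (chr11:53864542-53891660, minus strand). Its level was 19.7, 13.7 and 19.2 CPM in REG 1 to 3 and 30.3, 29.2 and 30.8 CPM in hADMSCs-Exo 1 to 3. The groups did not overlap, and the exosome group had the smaller spread. Its level was 1.71-fold higher (log2 fold change 0.77 ± 0.18 SE, unadjusted p = 0.00223, adjusted p = 0.358 in edgeR). DESeq2 gave an adjusted p of 0.0360, the lowest of the settings tried, whose range reached 1.00. In LFG 1 to 3, Slc22a5 read 18.5, 20.9 and 31.8 CPM, which overlapped REG. The overlap with hADMSCs-Exo came from LFG 3 alone, and LFG 1 and LFG 2 lay below every hADMSCs-Exo library. Without LFG 3, Slc22a5 was among 22 of 59 members at an unadjusted p under 0.05 against LFG in edgeR. That share was 28.5% of all genes, and Slc22a5 was not called.

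Its neighbours on chromosome 11, Slc22a4 and Slc22a21, did not share these values. Slc22a4, the ergothioneine carrier OCTN1, was 8.50, 2.53 and 2.28 CPM in REG and 17.8, 2.53 and 2.14 in hADMSCs-Exo, so that library 1 was high in both groups (log2 fold change 0.75 ± 0.86 SE, adjusted p = 0.789 in edgeR). Slc22a21 did not exceed 1.43 CPM in any library and was not tested here. The cation carrier Slc22a3, also known as OCT3, had 16 to 18 reads in each REG library and 27 to 36 in each hADMSCs-Exo library (log2 fold change 1.02 ± 0.33 SE, unadjusted p = 0.0139, adjusted p = 0.410 in edgeR). Slc22a3 overlaps Plg on the other strand, and the strand setting of the counting was not given in the sources used here, so reads of the 2 genes cannot be told apart.

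Of the 7 canalicular efflux genes, 6 were higher in hADMSCs-Exo than in REG (51.1% of all genes tested) and 3 of these had an unadjusted p under 0.05 (5.34%), with a group median log2 fold change of 0.48. Abcg2, which exports urate, porphyrins and many drugs, was 37.6, 47.8 and 52.7 CPM in REG and 69.8, 64.1 and 62.7 CPM in hADMSCs-Exo. Every exosome library was above every REG library (log2 fold change 0.51 ± 0.14 SE, unadjusted p = 0.00763, adjusted p = 0.407 in edgeR). Abcb4, the flippase that supplies phosphatidylcholine to bile, was 177, 135 and 192 CPM in REG and 289, 188 and 239 CPM in hADMSCs-Exo. Here hADMSCs-Exo 2 lay within the REG range (0.50 ± 0.20 SE on the log2 scale, unadjusted p = 0.0380, adjusted p = 0.479 in edgeR).

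Abcc2, which exports bilirubin glucuronides, was 346, 338 and 455 CPM in REG and 668, 552 and 371 CPM in hADMSCs-Exo, with hADMSCs-Exo 3 inside the REG range (0.48 ± 0.23 SE on the log2 scale, unadjusted p = 0.0710). The sterol pump genes did not give equal values. Abcg5 was 73.8, 67.0 and 68.2 CPM in REG and 72.7, 110 and 96.1 CPM in hADMSCs-Exo (0.41 ± 0.17 SE, unadjusted p = 0.0378, adjusted p = 0.478 in edgeR), and Abcg8 differed by 0.17 ± 0.18 SE on the log2 scale. The annotated models of this pair overlap on opposite strands, so part of their reads cannot be told apart. Of the multidrug resistance pair, Abcb1a was 0.13 lower on the log2 scale (SE 0.35), and Abcb1b, with 10 to 27 reads a library in these groups, was 0.75 higher (SE 0.40, unadjusted p = 0.0977), its groups not overlapping.

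**Figure D1:**
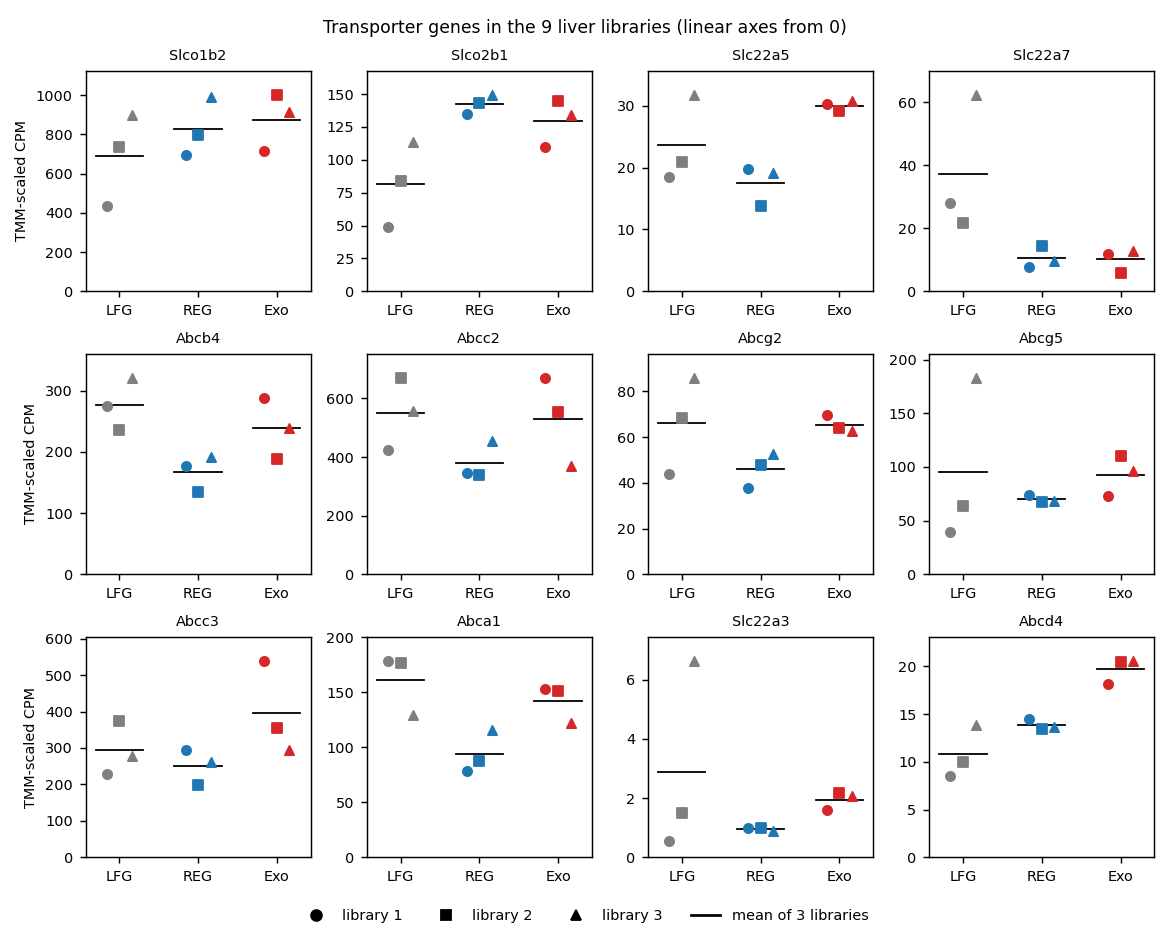
TMM-scaled CPM (vertical axes, linear from 0) of 12 transporter genes in LFG, REG and hADMSCs-Exo (Exo) livers, with 1 point per library and a bar at the mean of 3 libraries. Slc22a5, Abcg2, Slc22a3 and Abcd4 show every Exo library above every REG library, and Slc22a7 shows every REG and Exo library below every LFG library, with LFG 3 at 62.3 CPM.

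The ABCC genes of the sinusoidal and other membranes had the highest group median, 0.61 on the log2 scale, with 7 of 8 higher in hADMSCs-Exo and 4 higher at an unadjusted p under 0.05, beside 51.1% of all genes tested that were higher and 5.34% that were higher at that threshold. Abcc3, which returns glucuronides to blood, was 294, 199 and 261 CPM in REG and 538, 356 and 294 CPM in hADMSCs-Exo. The highest value was in hADMSCs-Exo 1, and hADMSCs-Exo 3 stood at the top of the REG range (0.65 ± 0.25 SE, unadjusted p = 0.0314, adjusted p = 0.463 in edgeR). Abcc5, a cyclic nucleotide exporter, was 8.50, 5.55 and 5.84 CPM in REG and 8.88, 9.88 and 12.1 CPM in hADMSCs-Exo, without overlap (0.63 ± 0.24 SE, unadjusted p = 0.0286, adjusted p = 0.463 in edgeR). Abcc10 differed by 0.60 ± 0.19 SE and Abcc12 by 1.80 ± 0.57 SE, the latter from only 2 to 6 reads a library in REG and 10 to 17 in hADMSCs-Exo. No REG library of Abcc12 reached the 10 reads of the member rule, which it passed through LFG and hADMSCs-Exo libraries. Its place among the 4 genes here and the 11 above is therefore no support for a difference. Abcc4, the other basolateral conjugate pump, was 2.64 to 6.84 CPM in REG and 4.92 to 8.68 CPM in hADMSCs-Exo, overlapping groups. Abcc9, a sulfonylurea receptor subunit of potassium channels carried by contractile cells, was the member lower in this group, at 11.1 to 17.1 CPM in REG and 3.20 to 14.6 in hADMSCs-Exo (-0.64 ± 0.47 SE, adjusted p = 0.664 in edgeR).

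Among the lipid transporters, Abca1, which loads cholesterol onto apolipoprotein A-I, was 78.9, 87.3 and 116 CPM in REG and 153, 151 and 122 CPM in hADMSCs-Exo. The groups did not overlap, though REG 3 and hADMSCs-Exo 3 were close (0.59 ± 0.17 SE, unadjusted p = 0.00894, adjusted p = 0.407 in edgeR). Abcg1, which hands cholesterol to lipoprotein particles and is known from macrophages, differed by 0.05 ± 0.22 SE. Of all 11 genes in this group 9 were higher and 2 lower, with a median of 0.06 on the log2 scale. Abcd4, which serves cobalamin release from lysosomes, was 13.4 to 14.5 CPM in REG and 18.1 to 20.5 CPM in hADMSCs-Exo, without overlap (0.51 ± 0.14 SE, unadjusted p = 0.00664, adjusted p = 0.407 in edgeR). The 8 genes of mitochondria, peroxisomes and lysosomes otherwise gave 2 higher and 5 lower, with none of those at an unadjusted p under 0.05.

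Of the 6 Slco genes, 3 were higher and 3 lower, with 0 at an unadjusted p under 0.05 and a median of -0.06 on the log2 scale. Slco1b2 was 694, 798 and 991 CPM in REG and 714, 1001 and 914 CPM in hADMSCs-Exo. Slco2b1, a carrier of sulfated steroids, was 135 to 149 CPM in REG and 109 to 144 in hADMSCs-Exo, and the prostaglandin transporter Slco2a1 61.1 to 83.1 and 75.2 to 94.9. These groups overlapped for every one. Of the 5 Slc22a anion carriers tested, 1 was higher and 4 lower, again with 0 at that threshold. Of the 8 organic cation, carnitine and orphan carriers tested, 5 were higher and 3 lower, and Slc22a5 and Slc22a3, described above, were the 2 at that threshold. Among all genes tested, 10.0% reached it in either direction and 5.34% were higher at it. The difference between these role groups was not tested.

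**Figure D2:**
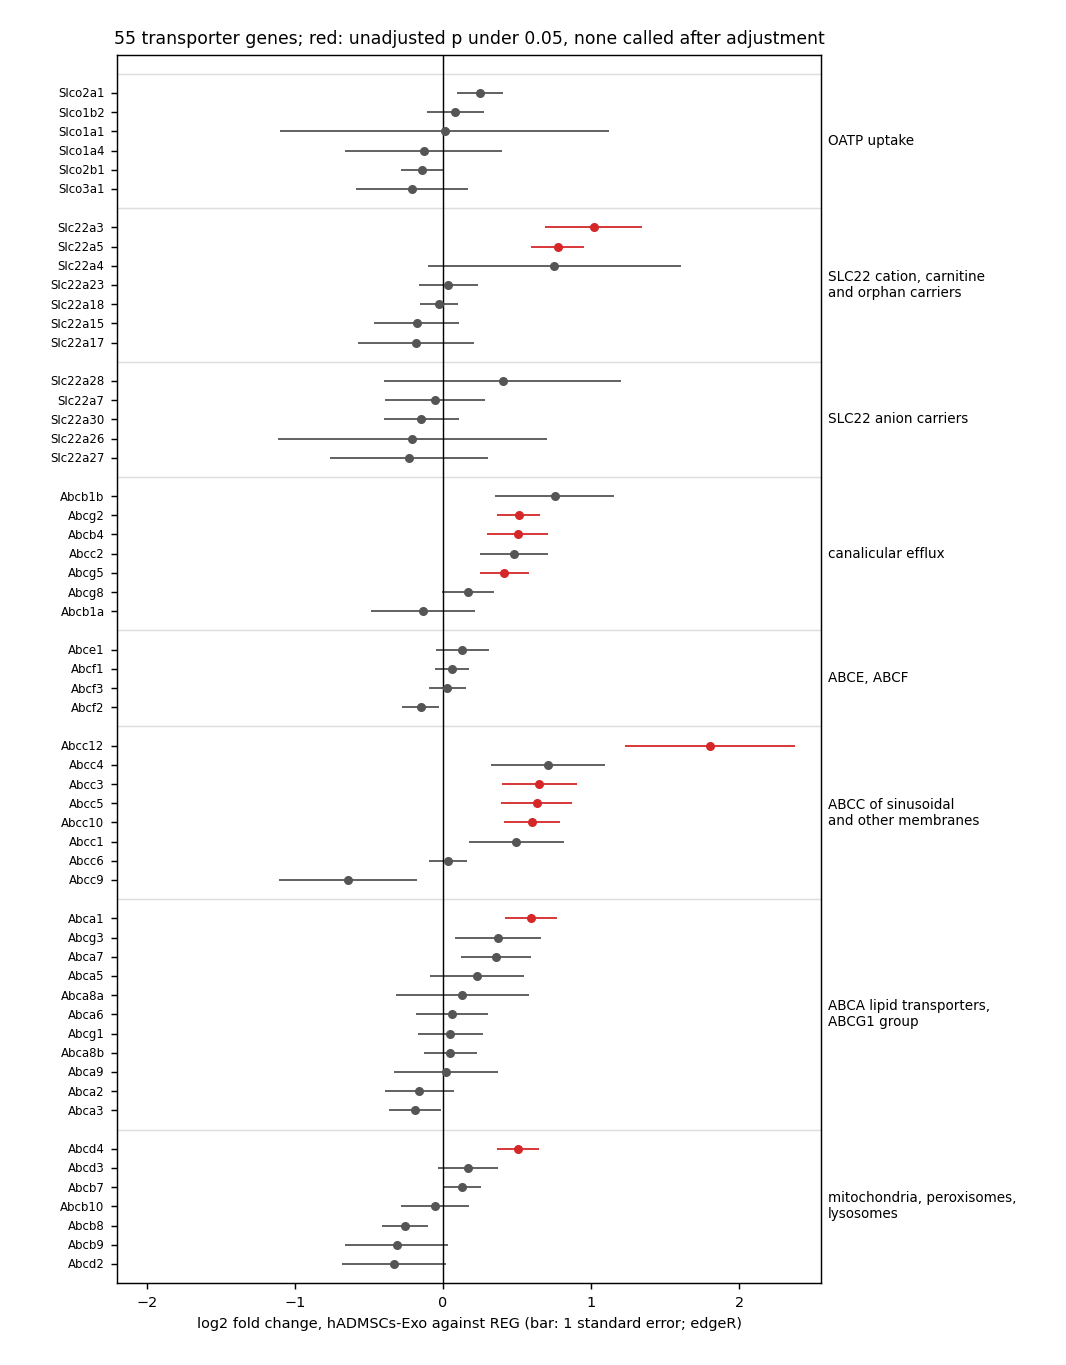
Log2 fold change of hADMSCs-Exo against REG (horizontal axis; points with bars of 1 standard error, edgeR) for transporter genes that were tested, ordered by role. The 11 red points have an unadjusted p under 0.05 and lie to the right of 0; 4 of them are ABCC genes and 3 are canalicular efflux genes, and none is among the OATP or SLC22 anion carriers.

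The comparison of REG with LFG follows the liver from the end of CCl4 through 4 weeks without it. With all libraries, edgeR called 0 of 57 members, beside 0.0% of 12517 genes, and 7 members had an unadjusted p under 0.05 (2 higher and 5 lower in REG), against 11.3% of all genes. Groups did not overlap for 11 members, 3 higher and 8 lower, against 19.0% of all genes, and for 27 members, 9 higher and 18 lower, against 55.1%, without LFG 3, a count added after the data were seen. Leaving out a library can only keep or raise such a count. DESeq2 called 1 member, Slc22a7, beside 1.81% of 12820 genes. Leaving out LFG 3, edgeR called 8 of 58 members, against 10.7% of 12948 genes, and 19 had an unadjusted p under 0.05, against 37.3%. Leaving out REG 1 or REG 2 instead took the 7 to 3 each time. The median log2 fold change of members was -0.18 with LFG 3 and 0.08 without it, beside -0.07 and -0.01 for all genes tested, so the sign of that median rested on 1 library.

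Slc22a7, the organic anion transporter OAT2 (chr17:46432183-46438457, minus strand), was 28.0, 21.5 and 62.3 CPM in LFG 1 to 3 and 7.64, 14.5 and 9.61 CPM in REG 1 to 3. LFG 3 was the highest library, but LFG 1 and LFG 2 also lay above every REG library. The log2 fold change was -1.81 ± 0.46 SE (adjusted p = 0.309 in edgeR) and -1.18 ± 0.28 SE without LFG 3 (adjusted p = 0.0344). DESeq2 on all libraries gave an adjusted p of 0.0192, and the settings tried reached 0.928. The hADMSCs-Exo livers read 12.0, 5.72 and 12.9 CPM, so they too were below all LFG libraries and overlapped REG.

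Slco2b1 was 48.5, 83.5 and 113 CPM in LFG and 135, 143 and 149 CPM in REG, without overlap (0.81 ± 0.32 SE, adjusted p = 0.420 in edgeR). Without LFG 3, its difference was 1.16 ± 0.25 SE, and it was called at an adjusted p of 0.0260.

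Several members were called lower in REG in the edgeR fit without LFG 3: Abcc5 (-1.61 ± 0.23 SE), Abcc1 (-1.32 ± 0.28), Abcc4 (-2.40 ± 0.66), Abcg1 (-1.20 ± 0.34) and Abca9 (-1.06 ± 0.22), with adjusted p-values of 0.0145 to 0.0493. In LFG 3 each of these 5 genes was lower than in LFG 1 and LFG 2, with Abcc4 at 7.33, 40.9 and 0.805 CPM and Abcg1 at 41.6, 19.9 and 2.77 CPM in LFG 1 to 3. The summed macrophage markers were 1879, 1395 and 155 CPM and the cholangiocyte markers 195.5, 149 and 50.3 CPM in the same libraries. Summed stellate cell, sinusoidal endothelial, lymphocyte and red blood cell markers were also lowest in LFG 3 within LFG. The hepatocyte sum was highest there, at 91873, 148279 and 158733 CPM in LFG 1 to 3. In REG the macrophage and cholangiocyte sums were 512 to 1494 and 69.6 to 75.5 CPM. The macrophage sum of REG 1 (1494 CPM) lay above that of LFG 2. The part of other cell types in the values of Abcc1, Abcc4, Abcc5, Abca9 and Abcg1 was not tested.

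Abca1 and Abcb4 were lower in REG than in LFG on every library. Abca1 was 178, 176 and 130 CPM in LFG against 78.9 to 116 CPM in REG (-0.77 ± 0.24 SE, adjusted p = 0.380 in edgeR, and -0.87 ± 0.20 SE without LFG 3, adjusted p = 0.0317). Abcb4 was 275, 235 and 320 CPM in LFG against 135 to 192 CPM in REG (-0.71 ± 0.24 SE, adjusted p = 0.391 in edgeR, and 0.0971 without LFG 3). Abce1, needed to recycle ribosomes, was 73.5 to 81.6 CPM in LFG and 42.9 to 67.6 CPM in REG (-0.53 ± 0.21 SE, adjusted p = 0.430 in edgeR, and -0.49 ± 0.21 SE without LFG 3, adjusted p = 0.134). For the sterol pump genes the difference was -0.45 ± 0.53 SE for Abcg5 and 0.05 ± 0.39 SE for Abcg8 with all libraries, and 0.48 ± 0.22 SE and 0.62 ± 0.20 SE without LFG 3 (adjusted p = 0.151 and 0.0631 in edgeR). Abcg5 read 183 CPM in LFG 3 against 39.7 and 63.9 CPM in LFG 1 and LFG 2, and Abcg8 126 against 48.0 and 58.7 CPM.

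**Figure D3:**
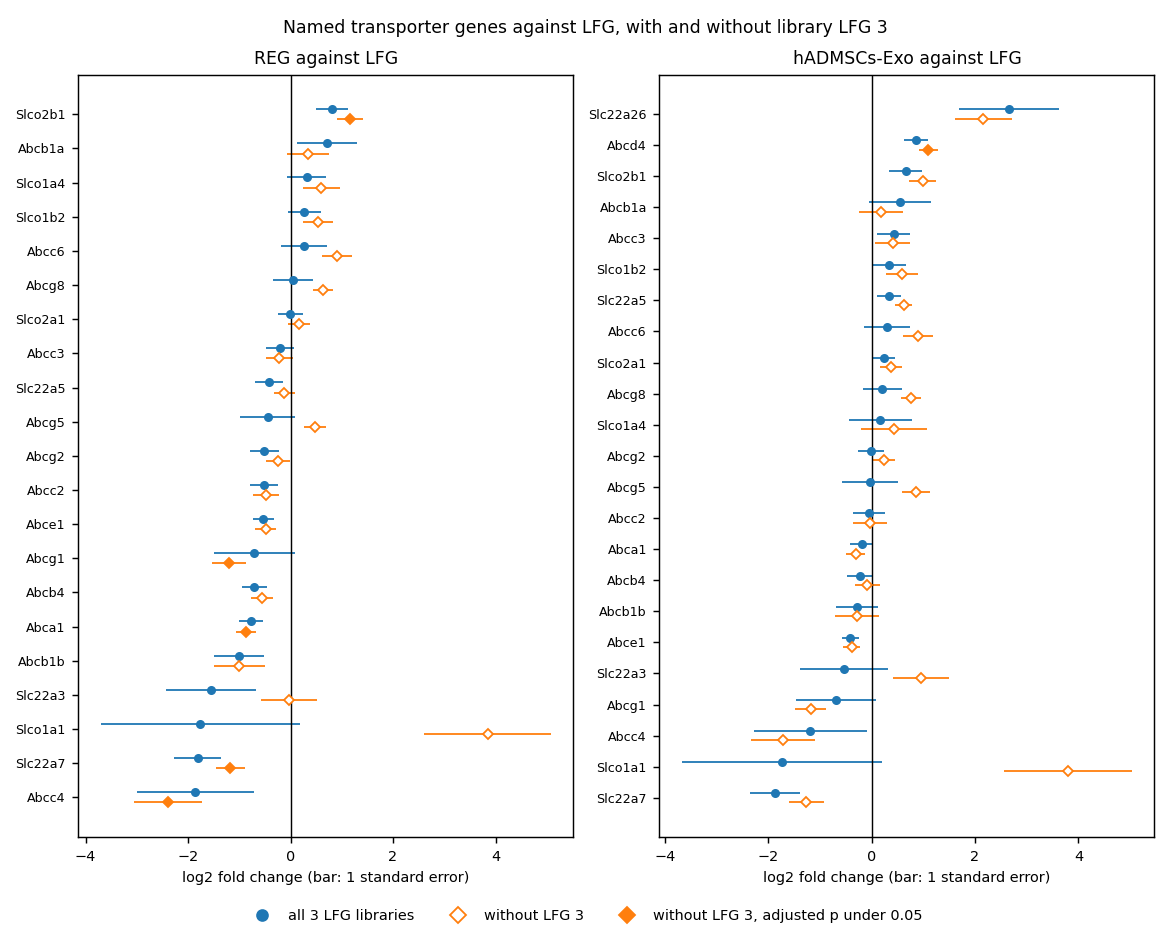
Log2 fold change of the named transporter genes in REG against LFG (left) and hADMSCs-Exo against LFG (right), with bars of 1 standard error; circles use all 3 LFG libraries and diamonds leave out LFG 3, filled where the adjusted p is under 0.05. Abce1 hardly moves between both fits, while Slco1a1 goes from -1.76 to 3.84 on the left.

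Against LFG, the hADMSCs-Exo livers gave 0 of 58 members called by edgeR, beside 0.0% of 12489 genes, 0 by DESeq2, beside 0.453% of 12795 genes, and 5 members at an unadjusted p under 0.05 (3 higher and 2 lower), against 5.98% of all genes. Groups did not overlap for 7 members, 3 higher and 4 lower, against 12.3% of all genes, and for 30 members, 12 higher and 18 lower, against 48.0%, without LFG 3. Leaving out LFG 3, 2 of 59 members were called, against 5.97% of 12955 genes, and 22 had an unadjusted p under 0.05, against 28.5%. The 5 became 2 without hADMSCs-Exo 2 (Abcd4 and Slc22a7) and 3 without hADMSCs-Exo 3. The members called without LFG 3 were Abcd4 (1.10 ± 0.19 SE, adjusted p = 0.0261) and Abcc5 (-1.003 ± 0.20 SE, adjusted p = 0.0348). Over all members, the median log2 fold change was -0.04 with LFG 3, 0.18 without it and 0.05 with all libraries and the replicate number as a block, so its sign did not hold across these fits.

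Both later groups share the LFG libraries as their reference, so their values are set side by side and not correlated. For Slc22a7 the log2 fold change was -1.87 ± 0.48 SE in hADMSCs-Exo and -1.81 ± 0.46 SE in REG, and without LFG 3 it was -1.27 ± 0.34 SE and -1.18 ± 0.28 SE. For Abcb4 it was, in the same order, -0.22 ± 0.25 SE and -0.71 ± 0.24 SE, and for Abca1 -0.19 ± 0.22 SE and -0.77 ± 0.24 SE, so that the hADMSCs-Exo levels of both genes were nearer to LFG. Without LFG 3 these values were -0.09 ± 0.24 SE and -0.56 ± 0.21 SE for Abcb4, and -0.31 ± 0.18 SE and -0.87 ± 0.20 SE for Abca1. Slc22a26, a rodent organic anion carrier, was 3.12, 10.3 and 0.268 CPM in LFG and 18.4, 43.2 and 26.4 CPM in hADMSCs-Exo (2.65 ± 0.97 SE, unadjusted p = 0.0292, adjusted p = 0.805 in edgeR, and 2.16 ± 0.55 SE without LFG 3, adjusted p = 0.0600), without overlap, while REG overlapped both groups at 84.8, 4.34 and 11.2 CPM.

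A few uptake carriers differed far more within groups than between them. Slco1a1, the organic anion carrier of male mouse liver (chr6:141907282-141946962, minus strand), was 1.39, 5.31 and 453 CPM in LFG, 2.90, 66.2 and 67.5 CPM in REG and 3.79, 91.2 and 41.5 CPM in hADMSCs-Exo. The highest library held 326 times the lowest, and library 1 was the lowest of each group. The log2 fold change of REG against LFG was -1.76 ± 1.94 SE with LFG 3 and 3.84 ± 1.23 SE without it (adjusted p = 0.744 and 0.0667 in edgeR), and for hADMSCs-Exo against REG it was 0.01 ± 1.11 SE.

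Slc22a28 and Slc22a30, of the same chromosome 19 cluster as Slc22a26, followed the same order in LFG. Slc22a28 was 0, 0.503 and 18.7 CPM and Slc22a30 was 37.0, 91.9 and 335 CPM in LFG 1 to 3, and library 1 was also lowest in REG and hADMSCs-Exo for both. Slc22a26 instead had its highest value of all libraries in REG 1 and its lowest in LFG 3. The genes of this cluster are close paralogs, and how reads that match several of them were counted was not given in the sources used here.

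Liver genes that are known to differ between the sexes in mice varied in these same libraries, although all mice were male. The summed level of 7 male-predominant genes (Cyp4a12a, Cyp4a12b, Cyp2d9, Mup20, Elovl3, Hsd3b5 and Cyp7b1) was 303, 724 and 7487 CPM in LFG 1 to 3, 260 to 1962 CPM in REG with REG 1 lowest, and 1198 to 3098 CPM in hADMSCs-Exo with hADMSCs-Exo 1 lowest. The sum of 6 female-predominant genes (Cyp2b13, Cyp2b9, Cyp2a4, Cux2, Sult3a1 and A1bg) was 133, 148 and 6.80 CPM in LFG, 503, 54.5 and 83.1 CPM in REG and 168, 63.3 and 47.3 CPM in hADMSCs-Exo. Both lists were chosen after these values were seen, and their part in the values of the carriers was not tested.

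**Figure D4:**
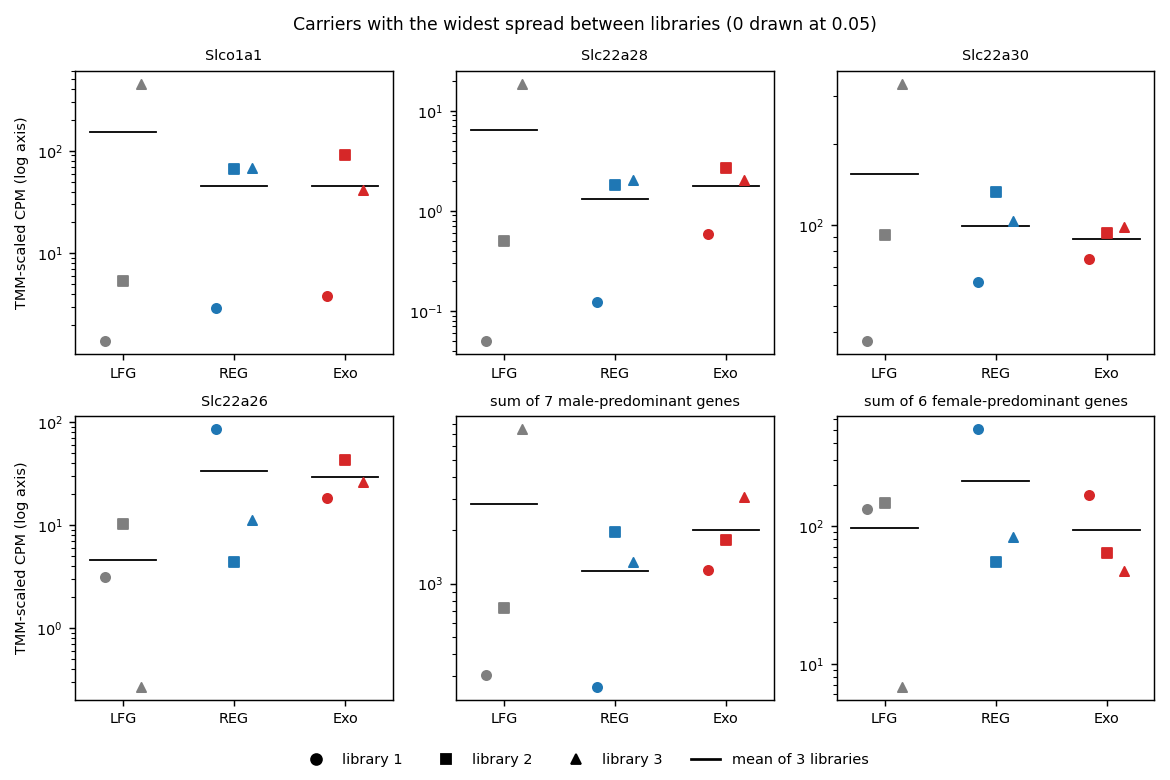
TMM-scaled CPM (vertical log axes) of 4 uptake carriers and of the summed male-predominant and female-predominant liver genes in each of 9 libraries; black bars are means of 3 libraries, Exo stands for hADMSCs-Exo, and a level of 0 is drawn at 0.05. Slco1a1, Slc22a28 and Slc22a30 are lowest in library 1 of each group and highest in LFG 3, where Slc22a26 has its lowest value.

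Of 30 transcription factors and receptors that govern transporter genes, 0 were called in any comparison by edgeR with all libraries. At an unadjusted p under 0.05 there were 4 higher and 1 lower in hADMSCs-Exo against REG (10.0% of all genes), 4 and 4 in REG against LFG (11.3%), and 2 and 0 in hADMSCs-Exo against LFG (5.98%). Without LFG 3 these became 11 and 3 in REG (37.3%) and 8 and 0 in hADMSCs-Exo (28.5%), and edgeR called 4 in REG (Nr1h4, Rxrg, Ahr and Cebpa, beside 10.7% of all genes) and 2 in hADMSCs-Exo (Nr1i3 and Nr1h4, beside 5.97%). DESeq2 with all libraries called 0 of them in hADMSCs-Exo against REG (0.525% of all genes), 4 in REG against LFG (Rxrg, Ahr, Cebpb and Cux2, beside 1.81%) and 1 in hADMSCs-Exo against LFG (Cux2, beside 0.453%). Ahr, the receptor for dioxins and planar aromatic compounds, was 52.8, 94.3 and 70.7 CPM in LFG, 36.9, 31.6 and 32.8 CPM in REG and 54.0, 62.5 and 77.6 CPM in hADMSCs-Exo. REG was the lowest group without overlap (hADMSCs-Exo against REG 0.93 log2, unadjusted p = 0.000457, adjusted p = 0.358 in edgeR). Cebpb, an acute phase activator, was 88.3 to 158, 40.7 to 68.2 and 78.5 to 119 CPM in the same order of groups (0.93 log2, adjusted p = 0.380). The xenobiotic receptor Nr1i2 (0.67 log2, unadjusted p = 0.0187, adjusted p = 0.430) and Hnf4a (0.43 log2, unadjusted p = 0.0215, adjusted p = 0.432) were also higher in hADMSCs-Exo than in REG in edgeR, while the bile acid receptor Nr1h4 differed by -0.03 and the oxysterol receptor Nr1h3 by -0.05 on the log2 scale.

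Of 18 other carriers and scaffolds of bile and drug transport, 14 were tested and 0 called by edgeR in each comparison, while DESeq2 called Pdzk1ip1 in hADMSCs-Exo against REG (beside 0.525% of all genes) and in REG against LFG (beside 1.81%). Without LFG 3, edgeR called 4 of 15 in REG against LFG (Slc10a1, Pdzk1ip1, Ezr and Msn, beside 10.7% of all genes) and 0 of 15 in hADMSCs-Exo against LFG (beside 5.97%). Slc10a1, which takes up bile salts from blood, was 142, 383 and 610 CPM in LFG, 617, 821 and 1100 CPM in REG and 249, 697 and 640 CPM in hADMSCs-Exo, where library 1 was again the lowest of each group. Pdzk1ip1, a small membrane partner of the scaffold Pdzk1, was 11.04 to 18.6 CPM in REG, above the 3.54 to 4.92 CPM of LFG and the 4.64 to 6.24 CPM of hADMSCs-Exo, and with all libraries it was the member of this list with an unadjusted p under 0.05 against either.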

How the data were processed

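Liver RNA was analysed in 9 libraries, 3 in each of 3 groups; 3 samples of a stem cell group of the 12 in the series were not analysed here. The columns headed MSC_E were matched to hADMSCs-Exo by that E, which the titles of the stem cell group lack; no other check of this match was made. Per the submitters' processing notes, the authors used cutadapt 1.15, HISAT2 2.0.5, HTSeq 0.9.1, DESeq 1.30.0 and GRCm38; the strand setting was not given in the sources used here. The deposited gene counts (raw reads per gene) were tested. The deposited FPKM values matched the counts once divided by length and by the total of the library (largest relative difference 9.19e-07) and served only to compare genes with each other.

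Each comparison used 6 libraries in edgeR 4.0.16 (R 4.3.3), with TMM scaling, filterByExpr, the quasi-likelihood test and Benjamini-Hochberg adjustment over all genes tested; called means an adjusted p under 0.05 and a log2 fold change of at least 1. Levels of single libraries are TMM-scaled CPM; log2 CPM used a prior count of 2. In these fits of 6 libraries, kept members not tested for low counts were Slc22a29 in each comparison, Slc22a21 in hADMSCs-Exo against REG and Abcc12 in REG against LFG. Some of the alternative fits tested all 59 kept members. Alternatives were size factors of the RLE kind, library totals alone, DESeq2 1.42.0, no filter on low counts, all 9 libraries in one fit, a replicate block, and each library left out in turn. An exact permutation test of 3 against 3 cannot go below p = 0.10, and none was used. The study gives n=3 for the hADMSCs-Exo and REG groups of its pathway comparison, but does not say that the libraries come from separate mice. The p-values therefore measure the spread between these samples. That spread exceeded counting noise (mean chi-square per gene of 27.0 to 299 between libraries of a group), and its source was not tested.

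Replicate numbers come from sample titles. The correlation of deviations from the group means between libraries of the same number was 0.101, 0.308 and 0.180 in hADMSCs-Exo against LFG, where each was over 0.1 and the fit with the number as a block is given where it changes a result, 0.159, 0.00938 and 0.0336 in hADMSCs-Exo against REG, and 0.415, -0.202 and 0.305 in REG against LFG. The reported values are from fits without that block. The named genes were a list of 21 transporters of known role in liver plus, in each comparison, up to 4 higher and 4 lower members with the smallest unadjusted p under 0.05; others named here were chosen after their values were seen. Some of these genes are not reported here, and are left out of the figures and of the counts of named genes. The members and all lists were chosen with earlier results of these data known. Figures were drawn with matplotlib 3.10.9.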

Additional observations from a re-analysis of the deposited data

How the results depend on the processing

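In hADMSCs-Exo against REG no alternative called a member, but the 11 members with an unadjusted p under 0.05 became 4 with all 9 libraries in one fit and 6 to 14 with one library left out. In hADMSCs-Exo against LFG the calls ran from 0 to 2, the members with an unadjusted p under 0.05 from 2 to 22 and the median log2 fold change of members from -0.12 to 0.18 with one library left out, each highest value without LFG 3. In REG against LFG these ran from 0 to 8, from 3 to 19 and from -0.27 to 0.078, again highest without LFG 3. Without LFG 3, a setting added for this count after the data were seen, members whose groups did not overlap went from 7 to 30 in hADMSCs-Exo against LFG and from 11 to 27 in REG against LFG. Leaving out any library can only keep or raise that count, and no library but LFG 3 was left out for it. In REG against LFG DESeq2 called 1 member, and library totals alone gave a median of -0.40, a setting that also moved the median of all genes by -0.20 there and by -0.12 in hADMSCs-Exo against LFG. Of 65 values of named genes, 24 changed sign under some alternative. With all libraries edgeR called 0 members, so none of the 24 could have been called there. Among the 24, Abcg1 and Abcc4 in REG against LFG were called without LFG 3, and the cause was not tested. Size factors of the RLE kind changed the sign for Slco1a1 (-0.0010) in hADMSCs-Exo against REG and Slco2a1 (0.0082) in REG against LFG, and DESeq2 for the same genes (-0.0021 and 0.014). Library totals alone did so for Slc22a7 (0.0063) in hADMSCs-Exo against REG, Abcg5 (0.018) in hADMSCs-Exo against LFG and Abcg8 (-0.032) in REG against LFG. Without a filter on low counts it held for Abcg2 (0.0030) in hADMSCs-Exo against LFG and Slco2a1 (0.043) in REG against LFG, and with all 9 libraries in one fit for Slco1a1 (-0.0018) in hADMSCs-Exo against REG.

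With the replicate block, as without it, 0 members were called in each comparison. At an unadjusted p under 0.05 there were 11, 6 and 7 members in hADMSCs-Exo against REG, hADMSCs-Exo against LFG and REG against LFG. The block turned the sign for Slc22a3 (0.10), Abcg2 (0.031), Slco1a4 (-0.067), Abcg5 (0.25) and Slco1a1 (0.96) in hADMSCs-Exo against LFG, and for Slco2a1 (0.012) and Slco1a1 (0.76) in REG against LFG.

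With one library left out, log2 fold changes that changed sign in hADMSCs-Exo against REG ran from -0.079 to 0.31 for Abcg1, -0.025 to 0.23 for Slco1b2, -0.56 to 0.31 for Slco1a4, -0.031 to 0.079 for Abcc6, -0.40 to 0.13 for Abcb1a, -0.997 to 0.55 for Slco1a1 and -0.26 to 0.23 for Slc22a7. In hADMSCs-Exo against LFG they ran from -1.04 to 0.95 for Slc22a3, -1.18 to 0.24 for Abcg1, -0.042 to 0.76 for Abcg8, -0.24 to 0.16 for Abcc2, -0.24 to 0.24 for Abcg2, -0.26 to 0.63 for Slco1a4, -0.069 to 0.90 for Abcc6, -1.71 to 0.79 for Abcc4, -0.41 to 0.86 for Abcg5 and -2.75 to 3.80 for Slco1a1. In REG against LFG they ran from -1.20 to 0.21 for Abcg1, -0.20 to 0.62 for Abcg8, -0.093 to 0.90 for Abcc6, -0.18 to 0.16 for Slco2a1, -2.40 to 0.12 for Abcc4, -0.81 to 0.48 for Abcg5 and -2.34 to 3.84 for Slco1a1. Members with few reads, such as Abcc12 (2 to 17 a library) and Slc22a3 (13 to 74), carry more counting noise. The part of that noise in these values was not tested.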
